A study of Mus musculus with 6 samples.

Results

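Hox genes encode homeodomain transcription factors that set position along the body axis, and in the mouse they sit in 4 compact clusters, Hoxa, Hoxb, Hoxc and Hoxd. Within a cluster the genes are ordered by paralogue group, with group 1 at one end and group 13 at the other, and low groups are active in anterior tissue and high groups in posterior tissue. Fibroblasts keep much of this positional pattern in culture. In the lung, the mesenchyme uses genes of the Hoxa and Hoxb clusters, and mice without Hoxa5, a Hox gene of lung mesenchyme, have defects of the airways.

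Open chromatin at these clusters was measured with the Omni version of ATAC-seq, an assay in which a transposase cuts and tags DNA that is not packed away, in primary fibroblasts sorted as GFP-positive from lungs of Col1a1-GFP transgenic mice. The reporter follows a collagen gene promoter, so the cells are those that were expressing it when sorted, and no group lacked the transgene. Cells were kept for 8 days in medium with 10% serum on soft 0.2 kPa PDMS (a silicone), on stiff 32 kPa PDMS or on tissue-culture plastic, all coated with collagen I. Each surface had 2 libraries. The labels do not say that these are from different mice or cultures. The p-values of the authors thus cover the spread among these libraries alone, 2 for each surface of a comparison. That spread may be technical. The labels give no age or strain. In such bulk libraries, a change in the share of cells with an open region and a change in every cell cannot be told apart.

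The regions described here were those whose nearest transcription start site belonged to a Hox gene or an antisense transcript named after one, at most 100 kb away. In the table of plastic against 32 kPa, 26 of 64217 regions met this rule. They carried 19 gene names, 16 of them protein-coding. The table of plastic against 0.2 kPa, which lists called regions only, held 2 of 2114, and the table of 32 kPa against 0.2 kPa held 0 of 2121. Values are the authors' mean level of a region in a culture, in log2 normalised reads. The tables hold no value per library, so the spread between libraries is unknown and the order of neighbouring levels cannot be set against it. Regions differ in width, and where regions are compared with each other the level is given per kb, which is the log2 level less the log2 of the width in kb.

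As a check of the cell type, 8 of 11 lung fibroblast marker genes, among them Col1a1, Col1a2, Tcf21 and Pdgfra, had a region within 1 kb of a start site. Lum, Tbx4 and Tbx5 did not. Such a region was found for 0 of 4 epithelial, 0 of 4 leukocyte and 1 of 4 endothelial markers (Kdr, at a level of 3.02 on plastic and 3.08 on 32 kPa). It was also found for 2 of 6 markers of pericytes, smooth muscle and mesothelium. These were Pdgfrb (6.15 on plastic and 6.14 on 32 kPa) and Myh11 (5.45 on plastic and 5.25 on 32 kPa). The fibroblast promoter levels ran on plastic from 2.97 at Thy1, below Kdr, to 6.15 at Col1a2. On 32 kPa they ran from 3.76 at Thy1 to 5.94 at Col1a2, so these levels did not stand apart from Pdgfrb and Myh11.

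The upstream sequences of 3 start sites in the Hoxa cluster are shown because they span what was found there: a promoter inside the cluster that was listed as higher on 32 kPa than on 0.2 kPa (Gm15050), the promoter region of the lung gene Hoxa5, and the neighbouring Hoxa6 promoter, where the table used here had no region. Each is the stretch of 250 bases before the RefSeq start site (GRCm38.p6, the assembly of mm10), 5′ to 3′ on the strand of the gene. Capitals mark bases inside an accessible region. Gm15050 lies at chr6:52172631-52172880 on the plus strand, Hoxa5 at chr6:52204588-52204837 and Hoxa6 at chr6:52208673-52208922, both on the minus strand.
Gm15050: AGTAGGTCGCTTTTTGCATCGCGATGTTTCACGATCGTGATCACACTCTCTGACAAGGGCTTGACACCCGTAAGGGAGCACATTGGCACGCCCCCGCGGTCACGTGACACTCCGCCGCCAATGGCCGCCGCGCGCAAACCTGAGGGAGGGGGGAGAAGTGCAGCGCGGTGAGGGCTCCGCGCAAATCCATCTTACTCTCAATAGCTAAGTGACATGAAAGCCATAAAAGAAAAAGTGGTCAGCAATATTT
Hoxa5: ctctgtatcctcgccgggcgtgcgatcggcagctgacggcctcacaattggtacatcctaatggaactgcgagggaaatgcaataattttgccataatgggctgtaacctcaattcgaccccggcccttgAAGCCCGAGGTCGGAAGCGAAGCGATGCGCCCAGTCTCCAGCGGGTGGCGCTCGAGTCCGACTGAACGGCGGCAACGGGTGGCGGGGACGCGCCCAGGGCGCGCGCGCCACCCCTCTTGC
Hoxa6: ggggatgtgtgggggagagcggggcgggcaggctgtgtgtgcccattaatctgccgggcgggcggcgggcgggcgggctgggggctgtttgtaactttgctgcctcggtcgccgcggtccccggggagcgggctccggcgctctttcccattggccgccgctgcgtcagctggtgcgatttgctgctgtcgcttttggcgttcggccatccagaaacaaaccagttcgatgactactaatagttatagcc

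The accessible region covered all 250 bases before the Gm15050 start site and the 120 bases nearest the Hoxa5 start site. The letters of Hoxa5 and Hoxa6 were alike in composition. The Hoxa5 stretch was 63.6% G or C with 28 CpG dinucleotides, and the Hoxa6 stretch 65.2% with 24, while the Gm15050 stretch was 55.2% with 20. Over the 27 Hox promoters in the RefSeq table, of 25 gene names, the median was 13 CpG, against 6 over all 32851 promoters. Only 3 of the 27 stretches, those of Hoxa2, Hoxa3 and Hoxa5, shared bases with an accessible region. Promoters of Hoxa4, Hoxb2, Hoxb5, Hoxb6, Hoxb9, Hoxc10 and Hoxc13 were not among the 27. Values over the 27 therefore do not describe the accessible Hox promoters as a set. The letters TAAT, the core that homeodomain proteins bind, were searched on both strands. They occurred 3 times in the Hoxa5 stretch, 3 times in that of Hoxa6 and 0 times in that of Gm15050, and at least once in 18 of the 27 Hox promoters and in 54.9% of all promoters. The letters TGATNNAT, a joint element of PBX and HOX proteins, were in none of these 3 stretches, in 4 of the 27 Hox promoters and in 7.68% of all promoters. The CCAAT letters were in all 3 stretches, in 14 of the 27 and in 33.8% of all promoters, and AGGTCA, a sequence bound by nuclear receptors, was in none of the 3, in 6 of the 27 and in 14% of all. In the Hoxa5 stretch the TAAT and CCAAT matches all lay among the small letters, outside the accessible region. Matches to TGATNNAT and CCAAT can overlap those to TAAT. All are matches of letters and do not show binding.

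Accessible regions lay mainly in the Hoxa and Hoxb clusters. Of the 39 protein-coding Hox genes in RefSeq, 16 were the nearest gene of at least 1 region. In the Hoxa cluster these were 7 of 11 genes (among them Hoxa2, Hoxa3, Hoxa4, Hoxa5, Hoxa7 and Hoxa10), and in the Hoxb cluster 5 of 10 (Hoxb1, Hoxb2, Hoxb5, Hoxb6 and Hoxb9). In the Hoxc cluster they were 3 of 9 (Hoxc8, Hoxc10 and Hoxc13), and in the Hoxd cluster 1 of 9 (Hoxd8). Of 4 antisense transcripts, 3 were the nearest gene of a region (Hoxb3os, Hoxb5os and Hoxd3os1). By paralogue group, 6 of 12 genes of groups 1 to 4 and 6 of 11 genes of groups 5 to 8 had a region, against 4 of 16 genes of groups 9 to 13. The other 23 protein-coding genes, Hoxa6 among them, had no region under their name in the table used here, and a region near one of them can carry the name of a neighbour in such dense clusters.

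Of the 26 regions, 16 (61.5%) lay within 1 kb of a start site, against 28.3% of all regions within 100 kb of one. Only 3 (11.5%) lay more than 10 kb away, against 53.1% of all regions within 100 kb of a start site. These 3 were intergenic regions nearest Hoxb1 and Hoxc13. Start sites are dense in the clusters, so a region inside one can seldom lie far from a start site. The widths ran from 84 to 366 bp. By level per kb, the median over the 26 regions was 6.99 on plastic and 6.66 on 32 kPa, against 6.83 on plastic and 6.74 on 32 kPa over all regions. The 16 promoter regions had a lower median than promoters in general: their median level per kb was 7.04 on plastic and 6.65 on 32 kPa, against 7.20 on plastic and 7.17 on 32 kPa over 15268 regions within 1 kb of any start site. This was a difference of medians, with no test.

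**Figure D1:**
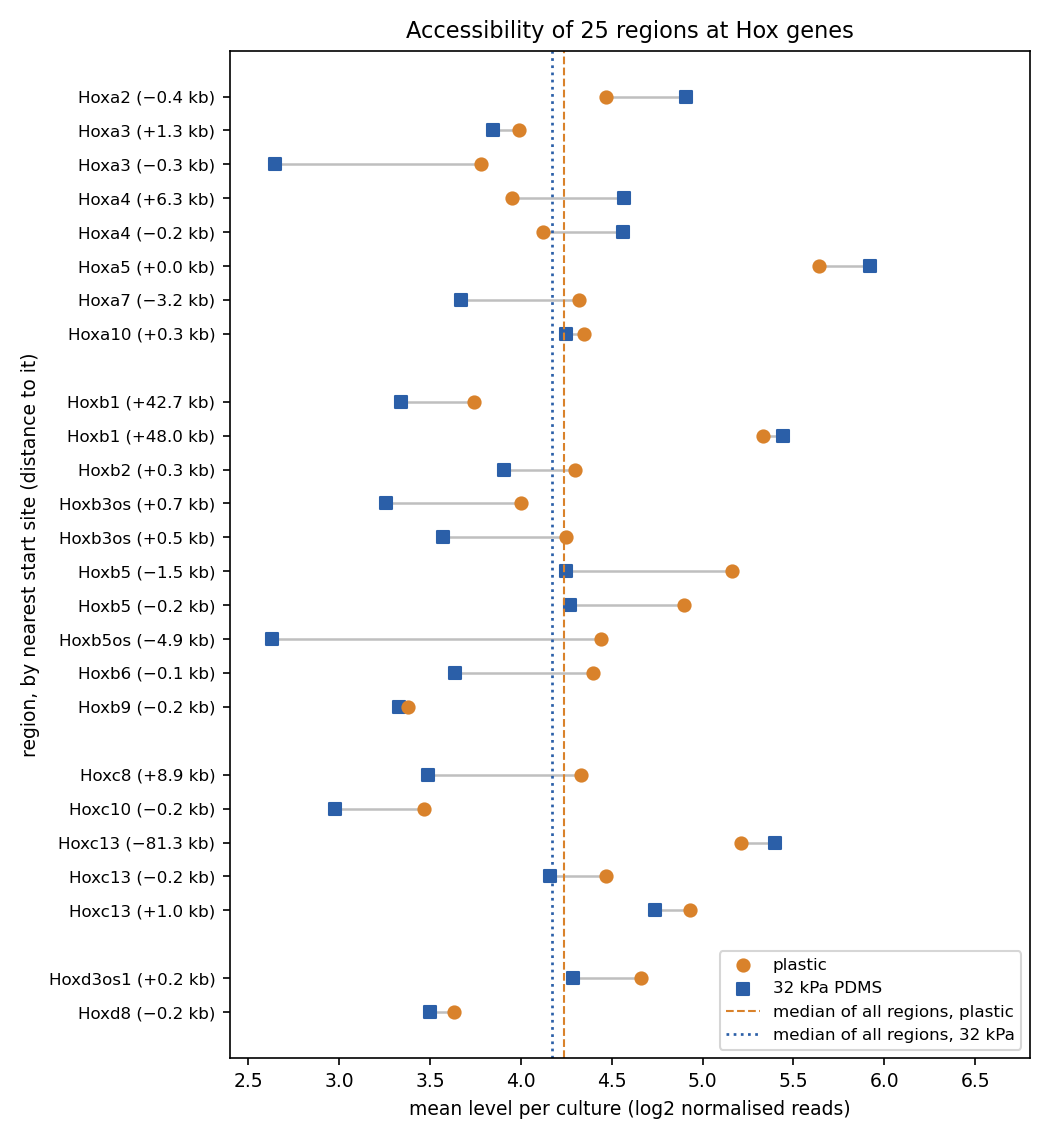
Authors' mean level of each Hox region on plastic (circles) and on 32 kPa PDMS (squares) in log2 normalised reads, with rows ordered by cluster and paralogue group and labelled by gene and signed distance to its start site. Of the 25 regions plotted, the Hoxa5 promoter region, also the widest of them at 334 bp, has the largest values, 5.64 on plastic and 5.92 on 32 kPa, and 9 of the 10 Hoxb regions have the plastic value to the right of the 32 kPa value.

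In the Hoxa cluster, the Hoxa5 promoter had the highest level per kb of any Hox region on 32 kPa. The Hoxa5 promoter region (chr6:52204374-52204707) had a mean level of 5.64 on plastic and 5.92 on 32 kPa, or 7.22 per kb on plastic and 7.50 per kb on 32 kPa.

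Hoxa3, which patterns the pharyngeal region, has a long transcript that starts between Hoxa6 and Hoxa7, and its 2 regions were near that start. The promoter region, 84 bp wide, had a mean level of 3.78 on plastic and 2.65 on 32 kPa. A region 1304 bases downstream had 3.99 on plastic and 3.85 on 32 kPa. A region 3.21 kb upstream of Hoxa7 had 4.32 on plastic and 3.67 on 32 kPa.

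The 4 Hoxa regions with a lower mean on plastic were those of Hoxa2, Hoxa4 and Hoxa5. Hoxa2, a patterning gene of the pharyngeal arches, had a mean level of 4.47 on plastic and 4.91 on 32 kPa at its promoter. Hoxa4 had 4.12 on plastic and 4.56 on 32 kPa at its promoter, and 3.95 on plastic and 4.57 on 32 kPa at a region 6.26 kb downstream of its start, in an intron of Hoxa3. Hoxa10, a gene of the posterior body and uterus, had 4.35 on plastic and 4.25 on 32 kPa in its 5′ UTR. Per kb, the promoter regions of the cluster ran on plastic from 6.60 at Hoxa2, 6.75 at Hoxa4 and 6.86 at Hoxa10 to 7.22 at Hoxa5 and 7.35 at Hoxa3, for the genes described here. The place of Hoxa3 above Hoxa5 depends on the division by width. Its region has the smallest width of all regions, 84 bp, and its deposited level on plastic was 3.78, against 5.64 at Hoxa5.

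On plastic, the level per kb in the Hoxb cluster was highest around Hoxb5 and Hoxb6, neighbouring genes in the middle of the cluster, of which Hoxb5 is expressed in developing lung mesenchyme. The region 1.51 kb upstream of Hoxb5 (chr11:96301907-96302097), at the end of Hoxb6 and inside the antisense gene Hoxb5os, had a mean level of 5.16 on plastic and 4.25 on 32 kPa. The Hoxb5 promoter region (chr11:96303264-96303433) had 4.90 on plastic and 4.27 on 32 kPa. The Hoxb6 promoter region had 4.40 on plastic and 3.64 on 32 kPa. Per kb on plastic these regions had 7.55, 7.46 and 7.45, and 7.55 was the highest value of any Hox region on plastic. This rank depends on the division by width, since the regions are 191, 170 and 121 bp wide. The deposited level of 5.16 was below those of other Hox regions, among them Hoxa5 (5.64) and the distal regions of Hoxb1 (5.33) and Hoxc13 (5.21).

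Towards group 1, the region in the first exon of Hoxb2, a hindbrain gene, had a mean level of 4.30 on plastic and 3.91 on 32 kPa. Beside it, 2 regions of Hoxb3os, 661 and 544 bases into that antisense transcript and inside the Hoxb2 intron, had 4.0 and 4.25 on plastic and 3.26 and 3.57 on 32 kPa. The promoter region of Hoxb9, which patterns the rib cage, had 3.38 on plastic and 3.33 on 32 kPa, and per kb its 6.63 on plastic was the lowest of the Hoxb promoter regions. Beyond the cluster, 2 intergenic regions 42665 and 48005 bases from Hoxb1 had 3.74 and 5.33 on plastic, against 3.34 and 5.44 on 32 kPa. Per kb the farther of them (chr11:96413605-96413922) had 6.98 on plastic and 7.09 on 32 kPa, the highest Hoxb value on 32 kPa.

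Of the 5 Hoxc regions, 3 were named for Hoxc13, the gene at the posterior end, and the others for Hoxc10 and Hoxc8. At Hoxc13, which is required for hair and nails, the promoter region had a mean level of 4.47 on plastic and 4.16 on 32 kPa, and a CpG island region 1025 bases downstream had 4.93 on plastic and 4.74 on 32 kPa. An intergenic region 81.32 kb upstream of Hoxc13 (chr15:102839658-102839972) had 5.21 on plastic and 5.40 on 32 kPa, or 6.88 per kb on plastic and 7.07 per kb on 32 kPa. The promoter region of Hoxc10, a gene of the lumbar body and hindlimb, had 3.47 on plastic and 2.98 on 32 kPa. A region named for Hoxc8, 8.87 kb past its start and within the body of Hoxc6, had 4.33 on plastic and 3.49 on 32 kPa.

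The Hoxd cluster had 2 regions. The promoter region of Hoxd8 had a mean level of 3.63 on plastic and 3.50 on 32 kPa, and a region in the antisense transcript Hoxd3os1, within the body of Hoxd3, had 4.66 on plastic and 4.29 on 32 kPa. No region was named for a Hoxd gene of groups 9 to 13.

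**Figure D2:**
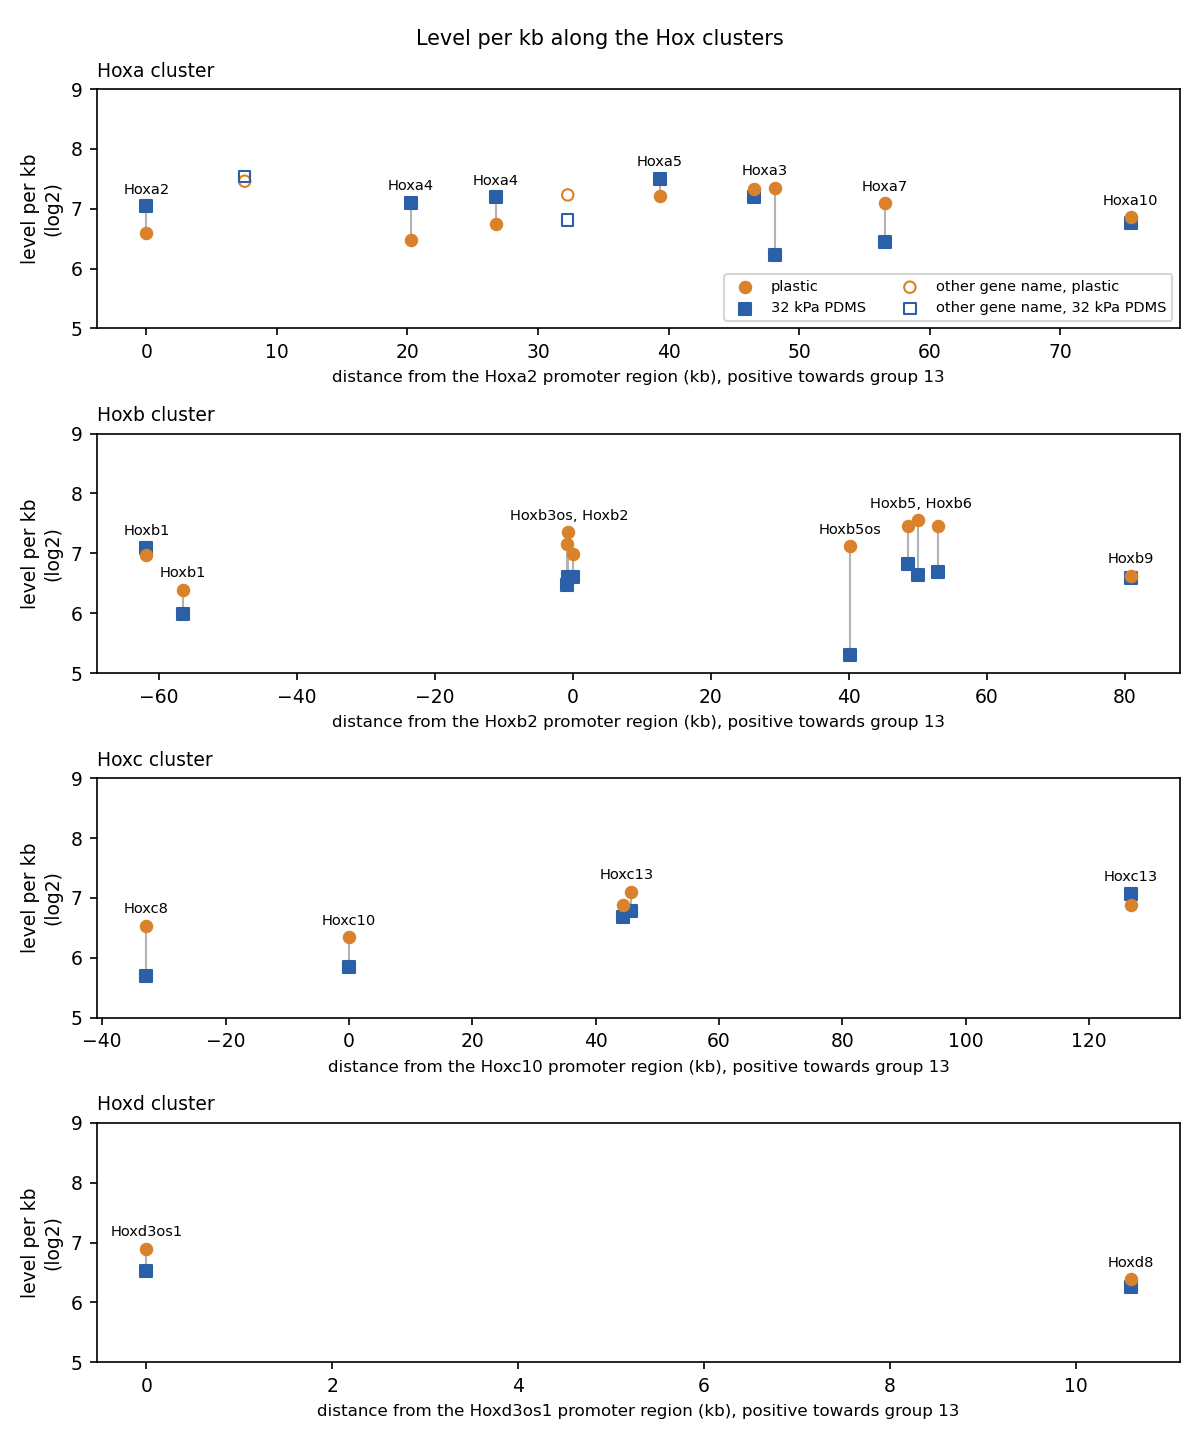
Level per kb (log2) on plastic (circles) and 32 kPa PDMS (squares) against distance in kb along each cluster, running from low to high paralogue groups; the open symbols are 2 regions inside the Hoxa cluster that carry another gene name. Hoxb regions cluster near Hoxb2 and near Hoxb5 and Hoxb6, and the Hoxb5os region shows the widest gap, 7.12 on plastic and 5.31 on 32 kPa.

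By level per kb, the order of the clusters differed between the surfaces. On plastic the medians were 7.14 for Hoxb (10 regions), 7.09 for Hoxa (9 regions), 6.88 for Hoxc (5 regions) and 6.64 for Hoxd (2 regions). On 32 kPa they were 6.61 for Hoxb, 7.10 for Hoxa, 6.69 for Hoxc and 6.39 for Hoxd. By paralogue group, the medians on plastic were 6.99 for groups 1 to 4, 7.17 for groups 5 to 8 and 6.87 for groups 9 to 13, and on 32 kPa they were 6.83, 6.54 and 6.72 for the same groups in that order. The Hoxb and middle groups thus stood first on plastic and not on 32 kPa, a description with no test. These are not separate observations, since 4 of the 8 regions of groups 5 to 8 are Hoxb regions. The Hoxb and Hoxa medians on plastic were also close, at 7.14 and 7.09.

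The comparison of plastic with 32 kPa asked whether the 2 stiffer surfaces differed. No Hox region differed at an FDR of 0.05 in the authors' deposited table, in which the FDR of each Hox region was 1, so that 0 of 26 were called beside 0% of all regions. At an unadjusted p under 0.05 it was 1 of 26, the Hoxb5os region, beside 0.576% of all regions (370 of 64217). That region (chr11:96311721-96311876), 4.89 kb upstream of Hoxb5os and within the body of Hoxb3, had 4.44 on plastic and 2.63 on 32 kPa, a log2 fold of 1.81 (p = 0.00729, FDR = 1) in the authors' deposited table. A fold this high or higher was found at 0.229% of all regions. It was the largest fold of the 26, so this share does not apply as it would to a region chosen beforehand.

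Most Hox regions had a higher mean on plastic, and the median difference was largest for the Hoxb cluster. Folds given here are log2, plastic over 32 kPa, from the authors' deposited table. Of the 26 regions, 20 were higher and 6 lower on plastic, with a median of 0.34, where 55% of all regions were higher and the median was 0.05. For Hoxb it was 9 of 10 with a median of 0.66, for Hoxa 5 of 9 with a median of 0.10, for Hoxc 4 of 5 with a median of 0.30, and for Hoxd 2 of 2 with a median of 0.25. A fold of at least 0.5 was seen at 6 of 10 Hoxb regions and at 15.6% of all regions. The Hoxb counts and median include 2 Hoxb3os regions that all but adjoin (chr11:96352685-96352782 and chr11:96352784-96352917), with folds of 0.74 and 0.69. These may be 1 open site counted as 2, which was not tested. Among all regions within the range of mean levels of the Hoxb regions, 14.4% reached it and the median was 0.07.

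Other regions around the Hoxb cluster were close to the median of all regions. On chromosome 11 as a whole (4056 regions) the median fold was 0.08, and among 30 regions with other gene names in the cluster or within 500 kb of it on each side it was 0.05. The same measure around the Hoxa cluster was 0.25 (21 regions), above the Hoxa median. The Hoxb folds are not independent of each other, since neighbouring regions share the same libraries, and without values per library the difference between Hoxb and the other clusters was not tested.

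The largest folds towards plastic after Hoxb5os were those of the Hoxa3 promoter region (1.13, p = 0.181), the region upstream of Hoxb5 (0.91, p = 0.058), the Hoxc8 region (0.84, p = 0.174) and the Hoxb6 promoter region (0.76, p = 0.195) in the authors' deposited table. Those of Hoxb5os and Hoxa3 were at the lowest deposited 32 kPa levels of the 26 regions, 2.63 and 2.65. The largest folds in the opposite direction were those of the Hoxa4 region in the Hoxa3 intron (-0.62, p = 0.252), the promoter regions of Hoxa2 (-0.44, p = 0.345), Hoxa4 (-0.44, p = 0.398) and Hoxa5 (-0.28, p = 0.405), and the distal Hoxc13 region (-0.19, p = 0.606), again in the authors' deposited table, with an FDR of 1 for each.

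**Figure D3:**
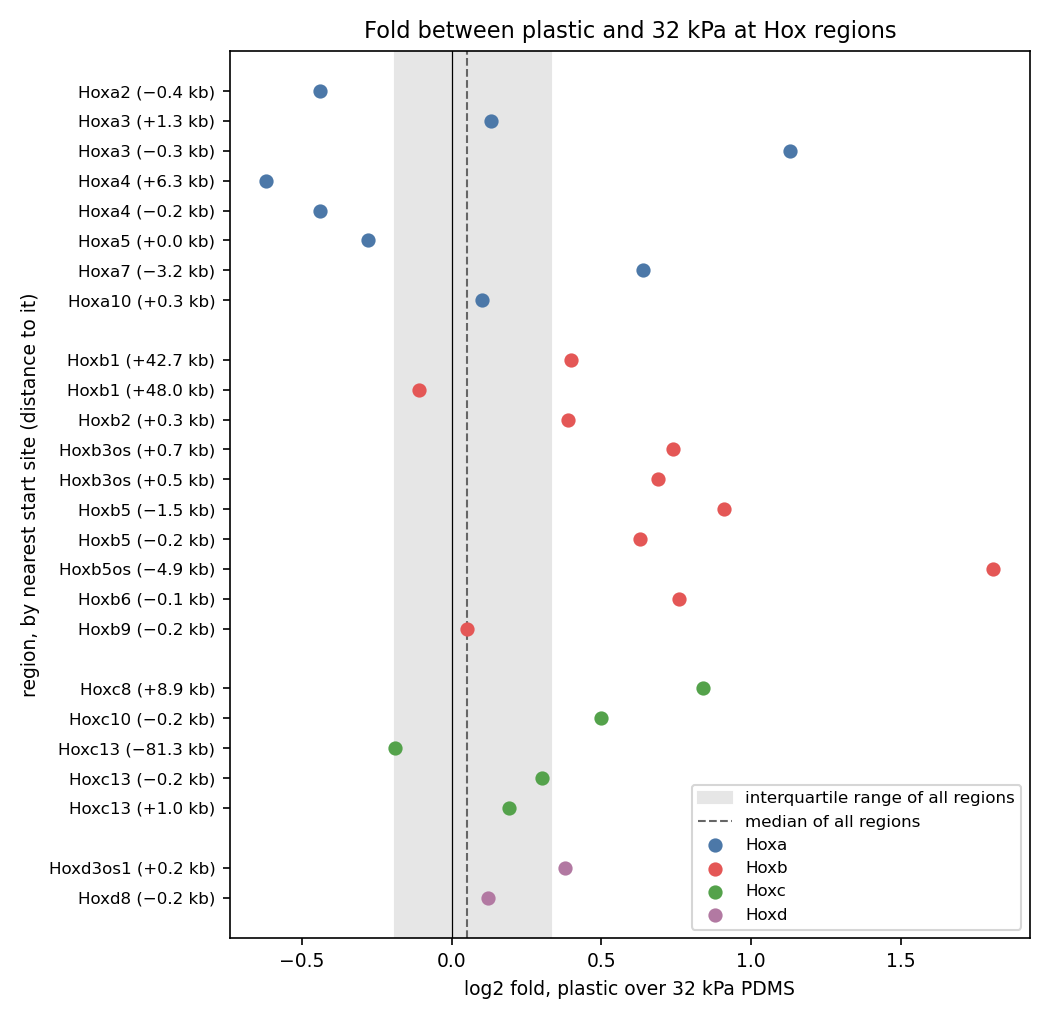
Authors' log2 fold, plastic over 32 kPa, of each Hox region by cluster, with the median (dashed line) and interquartile range (grey) of all regions. Of the Hoxb points, 8 lie to the right of the grey band, while 4 Hoxa points, from -0.62 to -0.28, lie to its left; no region passed an FDR of 0.05.

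The comparisons with 0.2 kPa asked which regions opened on a stiff surface. Both tables list only regions that were higher on the stiffer surface, with a log2 fold of at least 1 and an FDR of at most 0.05, so that a region not listed may have changed less. On plastic, 2 Hox regions rose relative to 0.2 kPa, beside 3.3% of all regions of the full table sharing at least 1 bp with a listed region. The region upstream of Hoxb5 had 5.17 on plastic and 4.01 on 0.2 kPa, a log2 fold of 1.16 (FDR = 0.0499), in the authors' deposited table. The Hoxb5 value is at the edge of the FDR limit. The fold was near the median of 1.12 over the listed regions.

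The lowest level of any listed region on plastic was 4.94, and 5 Hox regions reached it (among them Hoxa5, the region upstream of Hoxb5, and the distal regions of Hoxb1 and Hoxc13). Of these 2 were listed, where 11.7% of all regions at or above that level were. The other 21 lay below the level of every listed region, so that their absence from the list does not show that they were unchanged.

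On 32 kPa, 0 of the 26 regions were listed as higher than on 0.2 kPa, beside 3.31% of all regions. Only 4 (among them Hoxa5 and the distal regions of Hoxb1 and Hoxc13) reached the lowest listed level of 4.97, where 12.5% of all regions were listed. The table gives no p-value for a region it does not list, so no count at an unadjusted p can be given.

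Inside the Hoxa cluster, 3 further regions carried names outside the Hox rule, and 1 of them, singled out after its values were seen, was listed on 32 kPa. This was the promoter of the noncoding gene Gm15050 (chr6:52172546-52172920), within the body of Hoxa3, with 6.19 on 32 kPa and 5.14 on 0.2 kPa, a log2 fold of 1.05 (FDR = 0.0239) in the authors' deposited table. Its level on plastic was 6.12, or 7.46 per kb, beside a Hox maximum of 7.55. Another, named for Hoxaas3, had 4.34 on plastic and 3.92 on 32 kPa.

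Levels on the 3 surfaces can be set side by side at the Hoxb5 and Gm15050 regions. The level on 0.2 kPa comes from the list and the others from the table of plastic against 32 kPa, at the region that shares 100% of its length with the listed one for Hoxb5 and 94.7% for Gm15050. At Hoxb5 the levels were 4.01 on 0.2 kPa, 4.25 on 32 kPa and 5.16 on plastic, and at Gm15050 they were 5.14, 6.20 and 6.12 on the surfaces in that order. The 32 kPa level lay 0.24 above the soft one at Hoxb5, and the plastic level at Gm15050 was 0.98 above the soft one. These differences use the same 0.2 kPa libraries on which the regions were called, so they are given without a test. Markers of other cells were also listed: on 32 kPa 2 of 6 genes of pericytes, smooth muscle and mesothelium (Wt1 and Upk3b), and on plastic 2 of those 6 (Wt1 and Myh11) and 1 of 4 endothelial genes (Kdr), beside 2 of 11 fibroblast genes on each surface and 0 epithelial and 0 leukocyte genes. Counted as regions, 3 were listed on 32 kPa and 2 on plastic beside 16 regions of the pericyte, smooth muscle and mesothelial genes, 0 and 1 beside 12 of the endothelial genes, and 3 and 4 beside 66 of the fibroblast genes, where 3.31% of all regions were listed on 32 kPa and 3.3% on plastic. Their part in the Hox values was not tested.

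**Figure D4:**
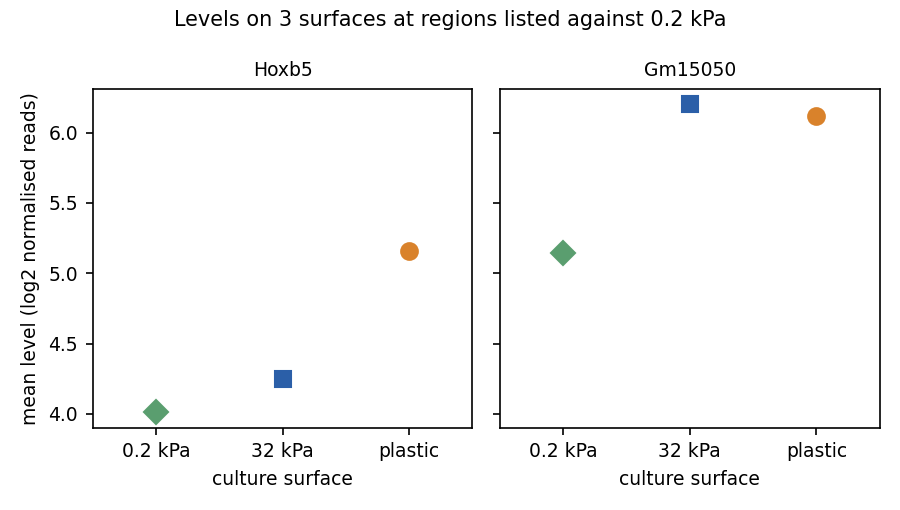
Authors' mean level (log2 normalised reads) on 0.2 kPa PDMS, 32 kPa PDMS and plastic at the region upstream of Hoxb5 and the Gm15050 promoter region listed against 0.2 kPa. At Gm15050 both stiffer surfaces stand near 6, while at Hoxb5 the 32 kPa value of 4.25 is close to the soft value of 4.01.

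HOX proteins bind DNA with TALE homeodomain cofactors (PBX, MEIS and PKNOX), and their genes are held silent by Polycomb complexes and kept active by Trithorax-type methyltransferases. Of 9 TALE cofactor genes, 2 had a listed region on 32 kPa and 5 on plastic, where the lists hold higher regions only. These were 2 listed regions on 32 kPa and 5 on plastic, set beside the 43 regions of these genes in the full table, where 3.31% of all regions were listed on 32 kPa and 3.3% on plastic. The 32 kPa count is near that background, and no test was made of the plastic count. The Meis2 promoter rose on both surfaces, to 6.79 on 32 kPa, against 5.39 on 0.2 kPa (log2 fold 1.40, FDR = 0.00116), and to 6.23 on plastic, against 5.10 on 0.2 kPa (log2 fold 1.12, FDR = 0.00884) in the authors' deposited tables. Both comparisons share the 0.2 kPa libraries. The listed Meis2 intervals were unlike in width, chr2:116065602-116066124 on 32 kPa and chr2:116065589-116065917 on plastic. Their levels therefore cannot be set against each other between the 2 surfaces. The Pknox1 promoter rose on 32 kPa (log2 fold 1.06, FDR = 0.00263), and on plastic the promoters of Pbx3 (1.19, FDR = 0.0287) and Pbx4 (1.05, FDR = 0.00449) and an intron of Pknox2 (1.02, FDR = 0.0432) rose, per the authors' deposited tables.

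Of 17 Polycomb subunit genes, which had 49 regions, 1 had a listed region on 32 kPa and 0 on plastic, below the 3.31% of all regions listed on 32 kPa and the 3.3% listed on plastic, so the count is no result about these genes. The listed region was the promoter of Bmi1, a subunit of Polycomb complex PRC1, at 6.13 on 32 kPa and 4.84 on 0.2 kPa in the authors' deposited table (log2 fold 1.29, FDR = 0.00693). The 8 genes of Trithorax complexes and H3K27 demethylases had 20 regions, with 1 listed on 32 kPa and 2 on plastic, beside the same 3.31% and 3.3% of all regions, and counts this small were not tested. Of these genes, Kmt2b, a histone H3K4 methyltransferase, was listed on 32 kPa (log2 fold 1.04, FDR = 0.00154), and the promoter of its complex partner Ash2l (1.03, FDR = 0.023) and an intergenic region 25.16 kb from Wdr5 (1.01, FDR = 0.0151) on plastic, in the authors' deposited tables. Of 12 retinoid and Cdx genes, which set Hox expression in the embryo and had 49 regions, 0 were listed on 32 kPa and 1 on plastic, below the shares of all regions. The listed one was the promoter of the retinoic acid receptor gene Rarb (log2 fold 1.08, FDR = 0.0064 in the authors' deposited table). Between plastic and 32 kPa the median log2 folds of these lists were -0.06, -0.04, -0.04 and 0.19 in the same order, beside 0.05 over all regions, and no region of them had an unadjusted p under 0.05 in the authors' deposited table.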

How the data were processed

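Omni-ATAC-seq libraries of 50000 cells, read to 51 bp from both ends, were grouped by the surface in their labels, 2 libraries for each of 3 surfaces. Per the submitters' processing notes, BWA, Picard, MACS2 and DiffBind were used with the build mm10; versions, settings and any shift for the transposase are not given in the sources used here. The authors deposited, per the file headers, log2 mean levels and log2 folds per region in the layout of DiffBind, and their own p-value and FDR. Gene names and distances are HOMER annotations in the deposited tables. No depth or value per library is given, so no counting interval was computed and no test was added.

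The sides named Control and Treat in the tables with 0.2 kPa were assigned from intervals shared with the table that names its surfaces. At 643 intervals Control equalled the 32 kPa level, and at 653 it lay 0.01 to 0.02 above the plastic level. Starts in those tables were raised by 1 to match, and 1 repeated header row was dropped. The overlap step was tested on simulated intervals.

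Named were all Hox genes with a region, regions listed or under the FDR limit, promoter regions (within 1 kb) highest and lowest per cluster, the 5 largest folds each way and the strongest distal regions. Some members and listed genes enter the counts but are not reported here by name. Members and lists were chosen with earlier results of these data known. Alternatives covered distance, position, FDR, promoter subsets, a level minimum and the width correction. Python 3.11.15, pandas 2.3.3, numpy 2.4.6 and matplotlib 3.10.9 were used.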

Additional observations from a re-analysis of the deposited data

How the results depend on the processing

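No paired analysis was possible because the tables hold 1 mean per culture and no library values; for the same reason no library could be left out. The number of Hox regions, and the calls against 0.2 kPa, did not change by over 1.5 times with a limit of 10 kb, with no distance limit or with matching by 50% of both lengths, an alternative chosen after seeing the data. By position inside the clusters 1 region, Gm15050, was listed on 32 kPa in place of 0. At an FDR of at most 0.01, 0 Hox regions were listed on plastic in place of 2. At an unadjusted p under 0.05, 1 region differed between plastic and 32 kPa in place of 0.

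Median levels per kb on plastic moved by over 0.1 in these cases. With promoter regions only they were 7.25 for Hoxb and 6.72 for Hoxc, within 10 kb 7.25 and 6.71, and as a mean 6.75 for Hoxc. With a mean level of at least 4 they were 6.86 for Hoxa, 7.45 for Hoxb and 6.90 for Hoxd. As deposited levels, not divided by width, they were 4.32 for Hoxa, 4.35 for Hoxb, 4.47 for Hoxc and 4.14 for Hoxd, so that Hoxc came first. The Hoxa median fold turned to -0.09 with promoter regions only and to -0.28 with a mean level of at least 4, where Hoxc had 0.19 and Hoxd 0.38. The Hoxb median stayed between 0.63 and 0.71. The causes were not tested.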

Other observations

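Of the genes that flank the clusters, Lnpk and Calcoco1 had a higher promoter level per kb than any Hox gene, and Mtx2 and Skap2 did not. The promoter region of Lnpk, on the posterior side of the Hoxd cluster, had a level per kb of 8.28 on plastic and 8.28 on 32 kPa, and that of Calcoco1, on the posterior side of the Hoxc cluster, had 8.30 on plastic and 8.40 on 32 kPa. The promoter region of Mtx2, on the other side of the Hoxd cluster, had 6.74 on plastic and 7.08 on 32 kPa, and that of Skap2, beside the Hoxa cluster, had 7.02 on plastic and 6.84 on 32 kPa. By the same measure no Hox region exceeded 7.55 on plastic, and the highest on 32 kPa was Hoxa5 (7.50). A region 4.70 kb upstream of Mir196a-1, a microRNA gene between Hoxb13 and Hoxb9, had the same level on both surfaces within rounding, 4.73 on plastic and 4.72 on 32 kPa. The Hoxb9 promoter region, the Hox region nearest to it, had a log2 fold of 0.05, and the 2 distal Hoxb1 regions had 0.40 and -0.11. The Hoxb2 to Hoxb6 regions were all at least 0.39 higher on plastic in the authors' deposited table. These differences were not tested.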
